A study of Mus musculus with 2 samples.

Results

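Mitochondrial ribosomal protein genes were described in megakaryocyte-erythroid progenitors (MEP), the bone marrow cells that give rise to platelet-forming megakaryocytes and to red cells. Members were the protein-coding mouse genes whose symbol is Mrpl or Mrps followed by a number and, in some, a letter. This rule found 78 of the annotated genes, 49 with a large subunit symbol (Mrpl) and 29 with a small subunit symbol (Mrps). Of these, 77 were matched in the tables, among 42462 annotated genes and 21461 protein-coding nuclear genes in all, and 1, Mrpl33, was not analysed here. Both libraries came from MEP primary cells of adult male C57BL/6J mice aged 5 to 6 weeks, with no other allele, treatment or time named in the labels. Each held total RNA longer than 200 bases from a pool of 100 cells, with spike-in RNA added. They are labelled as biological replicates 1 and 2 and are separate biosamples, but the labels give 1 donor record for both, so the spread between them may be technical. There is 1 group, so no condition was compared and no p-value was computed.

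The mitochondrial ribosome translates the few messages encoded in the mitochondrial genome, all for core subunits of the respiratory chain and ATP synthase. Its ribosomal RNAs are made inside the organelle, whereas every one of its proteins is encoded in the nucleus, made in the cytosol and imported. Some of the proteins descend from bacterial ribosomal proteins and others were added in the mitochondrial lineage. In red cell precursors the organelle also houses the first and last steps of haem synthesis.

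Total expected counts were 30016974 in replicate 1 and 51510347 in replicate 2, of which protein-coding nuclear genes held 13518448 and 25799923. The members together held 57832 and 123770 expected counts, or 0.428% and 0.480% of those of protein-coding nuclear genes. All 10 MEP marker genes, which include the erythroid factors Gata1 and Klf1 and the receptor Kit, were at 10 TPM or more in both libraries, with summed levels of 2676 and 3164 TPM. TPM is a level corrected for transcript length and scaled to a fixed sum in each library. Markers of other cells differed between the libraries. The 9 neutrophil genes summed to 1886 and 7.57 TPM, with 5 of them at 0 in replicate 2, and the 7 B cell genes summed to 7.14 and 125.8 TPM. The 7 T and NK cell genes summed to 49.4 and 37.9 TPM and the 6 megakaryocyte genes to 19.6 and 24.8 TPM, with Pf4 at 0 in replicate 1 and Gp1bb at 0 in replicate 2.

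Every member analysed was expressed, at levels that spanned more than an order of magnitude. TPM ran from 7.31 to 179 in replicate 1 and from 8.47 to 217 in replicate 2, and the highest member stood 24.5-fold and 25.6-fold above the lowest. The median member was at 33.0 and 42.5 TPM. At 10 TPM or more in both libraries were 73 of 77 members, against 24.7% of protein-coding nuclear genes. The 4 below were Mrpl1, Mrpl11, Mrpl19 and Mrps31. A minimum of 20 TPM left 61 members, 50 TPM left 21, and 100 TPM left 3, all of the large subunit. Protein-coding nuclear genes of a mean of at least 1 TPM had a median of 11.8 and 13.6 TPM.

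The cytosolic ribosome gave a scale for these levels. The median of 80 cytosolic ribosomal protein genes was 1334 and 1543 TPM, 40.4 and 36.3 times the mitochondrial median. The standard deviation of log2(TPM + 1) was 0.897 and 0.927 over the 77 members. It was 0.721 and 0.746 over the 77 cytosolic genes at 10 TPM or more, and 2.11 and 2.12 over all 80, of which 3 lay below 1 TPM in both libraries. Protein-coding nuclear genes of a mean of at least 1 TPM had 1.72 and 1.77.

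**Figure D1:**
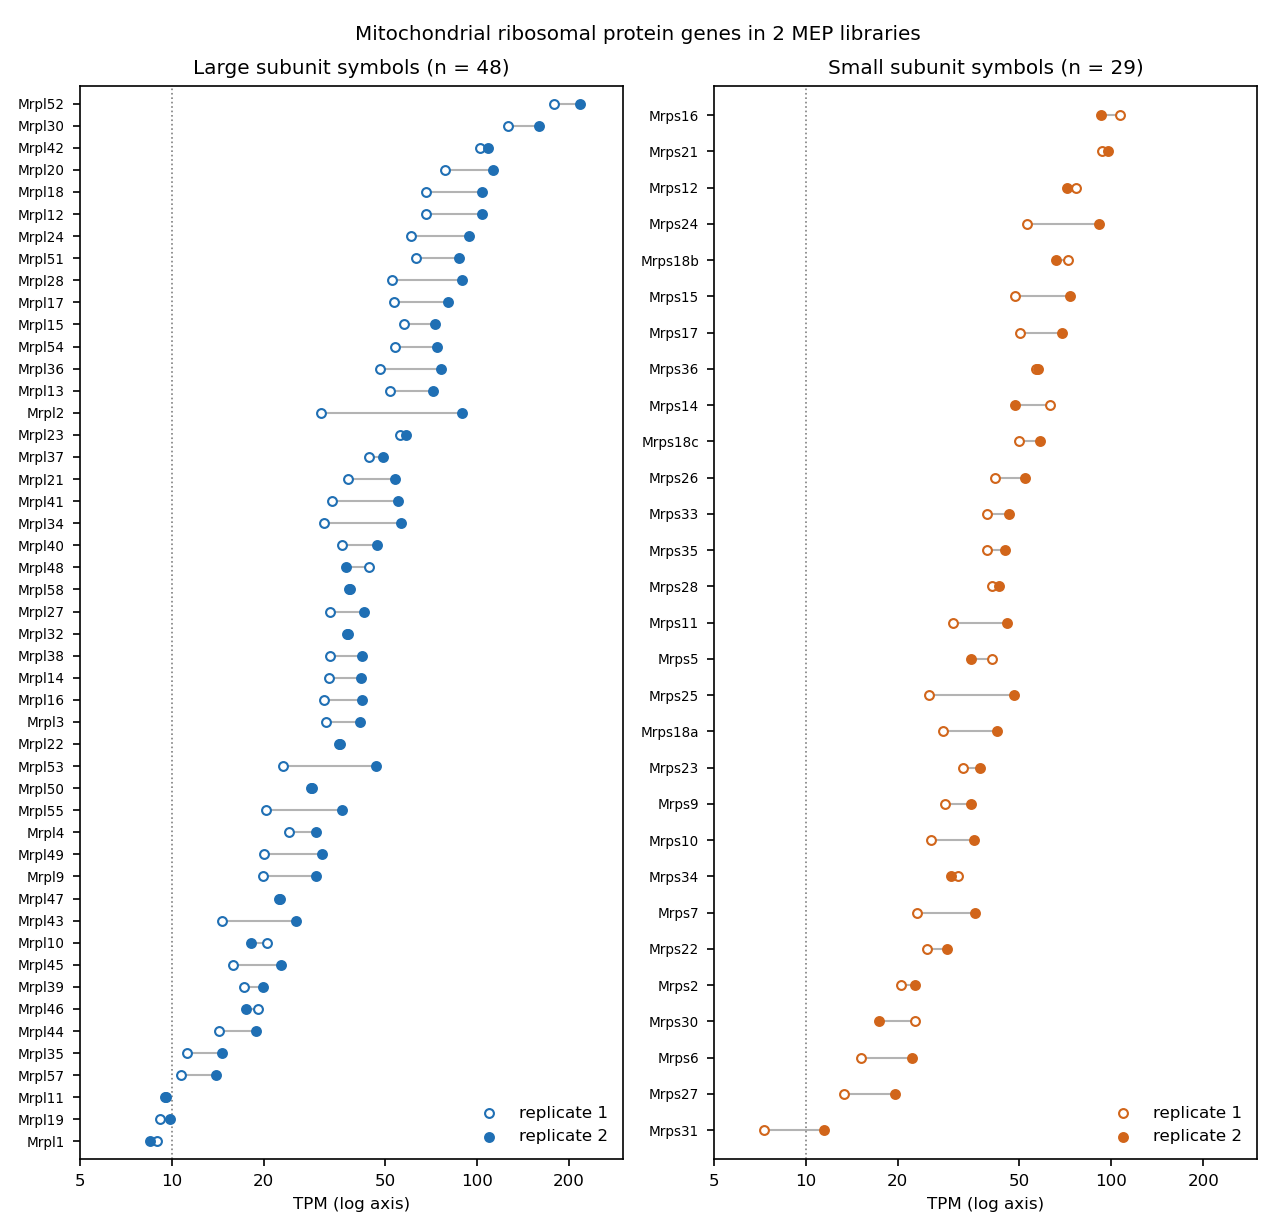
Level of each member in TPM (log axis) in replicate 1 (open points) and replicate 2 (filled points), ordered by the mean within large subunit (blue) and small subunit (orange) symbols. The dotted line marks 10 TPM. Mrpl52 lies highest at 179 and 217 TPM, and most filled points lie to the right of the open ones.

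Among the large subunit genes, Mrpl52 was the highest of all members, at 179 and 217 TPM in replicates 1 and 2 (mean 198 ± 26.9, SD, n = 2). It encodes a protein found in mitochondrial but not in bacterial ribosomes. Mrpl30, which has a bacterial counterpart, was at 127 and 159 TPM (143 ± 23.0), and the mitochondrial addition Mrpl42 at 102 and 109 TPM (106 ± 4.53). The gaps from Mrpl52 to Mrpl30 and from Mrpl30 to Mrpl42 kept their direction in both libraries, with no overlap of the values.

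Below these 3 the order was less firm. Mrpl20 was at 78.4 and 112 TPM, Mrpl18 at 68.3 and 104 TPM, and Mrpl12 at 68.3 and 104 TPM. Mrpl24 followed at 61.0 and 94.4 TPM and Mrpl51 at 63.2 and 87.4 TPM. Their values overlapped from gene to gene, so the neighbours in this order did not differ beyond the spread of the libraries.

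At the low end of the large subunit stood Mrpl1, the gene for the protein of the mobile stalk beside the exit site of transfer RNA, at 8.99 and 8.47 TPM. Mrpl19 was at 9.19 and 9.85 TPM and Mrpl11 at 9.58 and 9.50 TPM. The values of Mrpl19 and Mrpl11 overlapped, and both values of Mrpl1 lay below them. Mrpl57 was at 10.7 and 14.0 TPM and Mrpl35 at 11.2 and 14.7 TPM. None of the 5 was low in reads: Mrpl1 had 463 and 850 expected counts, Mrpl19 had 883 and 1839, and Mrpl35 had 883 and 2013.

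In the small subunit, Mrps16 was highest, with 107 and 92.4 TPM (99.8 ± 10.5), followed by Mrps21 at 93.2 and 97.4 TPM (95.3 ± 2.96). Both have bacterial counterparts, and their values overlapped. Mrps12, whose protein lines the decoding site, was at 76.5 and 71.8 TPM. Mrps24, a relative of the bacterial protein at the entry of the message, was at 52.8 and 91.4 TPM. The rest of the 8 highest were Mrps18b at 72.4 and 65.8 TPM, Mrps15 at 48.5 and 73.3 TPM, Mrps17 at 50.3 and 69.2 TPM and Mrps36 at 56.8 and 57.4 TPM.

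The Mrps36 protein is an adaptor of the 2-oxoglutarate dehydrogenase complex, a citric acid cycle enzyme, and is no longer counted as a ribosomal protein. Its gene gave 685 and 1186 expected counts, with a level of 57.1 ± 0.396 TPM (SD, n = 2).

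The lowest small subunit gene was Mrps31, at 7.31 and 11.4 TPM, on 225 and 605 expected counts. Mrps27, whose protein belongs to the pentatricopeptide repeat family, was at 13.3 and 19.6 TPM, Mrps6 at 15.2 and 22.3 TPM, Mrps30 at 22.7 and 17.3 TPM and Mrps2 at 20.5 and 22.7 TPM. Only Mrps31 lay below 10 TPM in a library, and its 2 values did not overlap those of Mrps27.

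Large and small subunit genes had similar medians and different spreads. The median of the large subunit genes was 33.0 TPM in the first library and 41.9 TPM in the other, and that of the small subunit genes 39.1 and 44.9 TPM. The ratio of large to small was thus 0.844 and 0.933 in the single libraries, and 0.992 for the medians of the mean levels (37.7 and 38.0 TPM). Its direction turned with the scale: the ratio was 1.06 on counts scaled by library size with no length correction (CPM) and 1.11 on the TPM of protein-coding transcripts alone. From library to library the medians moved by amounts similar to or larger than the gaps between the subunits. At 10 TPM or more in both libraries were 45 of 48 large and 28 of 29 small subunit genes. The standard deviation of log2(TPM + 1) was 0.946 and 1.04 over large, and 0.820 and 0.726 over small subunit genes, so the large subunit spread more widely in both libraries.

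Symbols follow the subunit in which a protein was first placed. The proteins of Mrps30 and Mrps18a sit in the large subunit, and 5 ribosomal proteins carry other names. With genes assigned by structure, Mrps36 left out and those 5 added, the ratio of large to small medians was 0.890. Genes with bacterial counterparts had medians of 33.0 and 42.5 TPM in the large subunit (29 genes) and 44.6 and 47.1 TPM in the small subunit (16 genes). Genes for mitochondrial additions had medians of 28.6 and 38.5 TPM in the large subunit (21 genes, with Mrps30 and Mrps18a) and 32.0 and 41.0 TPM in the small subunit (10 genes).

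Shorter members had higher levels. Across the 77 members, log2 TPM correlated with log2 effective length at Pearson r = -0.727 in replicate 1 and -0.758 in replicate 2, a description across genes of 1 library each, in which effective length also divides the reads to give TPM. The same correlation was -0.459 and -0.405 over the 77 cytosolic genes and -0.270 and -0.299 over protein-coding nuclear genes of a mean of at least 1 TPM. The 15 members shorter than 700 bases in replicate 1 had a median of 56.8 TPM, and the 20 longer than 1500 bases a median of 20.0 TPM. In replicate 2 the medians were 82.0 TPM (14 members) and 21.3 TPM (20 members).

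Reads per gene varied less than levels. Expected counts ran from 225 to 1765 in replicate 1 and from 561 to 4394 in replicate 2, a 7.84-fold and 7.83-fold range, against 24.5-fold and 25.6-fold in TPM. The standard deviation of log2 counts was 0.650 and 0.633, and that of log2 TPM without a pseudocount 0.930 and 0.956. In the cytosolic genes the 2 were about equal (0.743 and 0.815 for counts, 0.721 and 0.747 for TPM). Short members had a median of 575 and 1148 counts and long ones 753 and 1789. Mrpl52, at 412 bases, had 1087 and 2071 counts, close to the 883 and 1839 counts of Mrpl19, the member with nearly the lowest level.

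**Figure D2:**
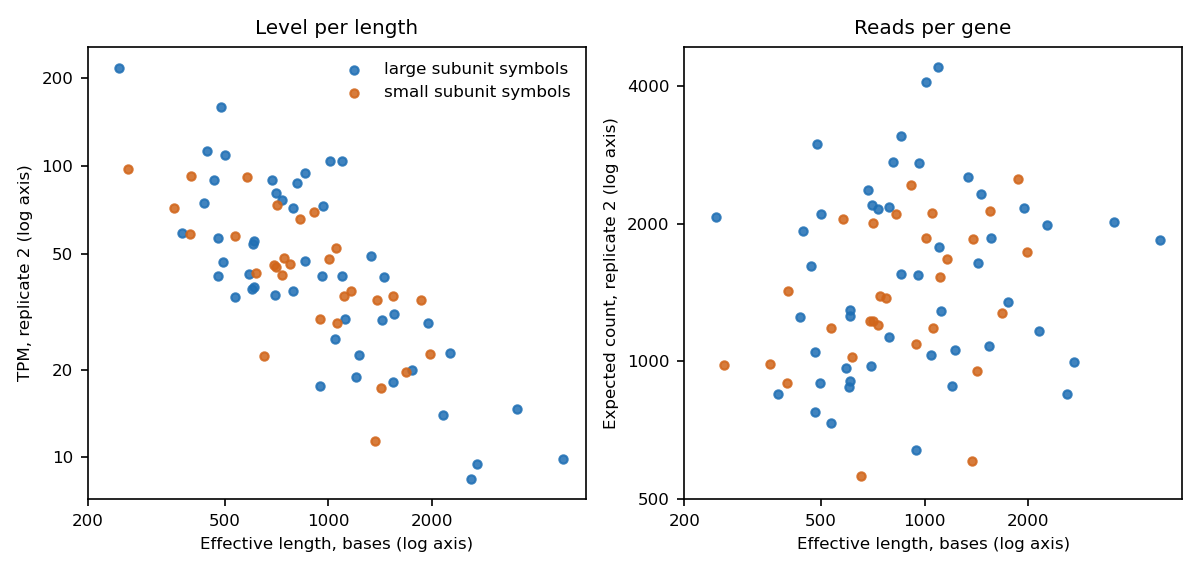
TPM (left) and expected count (right) of each member in replicate 2 against effective length in bases, all on log axes, with large subunit symbols in blue and small subunit symbols in orange. TPM falls along the length axis (r = -0.758). Counts run from 561 to 4394, with a median of 1148 in members under 700 bases and 1789 in those over 1500.

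Genes whose proteins sit side by side in the large subunit did not share 1 level. The stalk, which recruits the translation factors, is built from the proteins of Mrpl10, Mrpl11 and Mrpl12, with Mrpl12 present in several copies. Mrpl12 was at 68.3 and 104 TPM, Mrpl10 at 20.5 and 18.2 TPM and Mrpl11 at 9.58 and 9.50 TPM. The 3 genes kept this order without overlap, and Mrpl12 had the most reads of all members, 1765 and 4394 expected counts.

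Around the exit of the tunnel through which the new protein leaves, Mrpl24 was highest at 61.0 and 94.4 TPM and Mrpl17 followed at 53.5 and 80.7 TPM. Mrpl23 was at 55.9 and 58.6 TPM and Mrpl22 at 35.2 and 35.6 TPM. Mrpl47 was at 22.7 and 22.4 TPM and Mrpl45, whose protein tethers the ribosome to the inner membrane, at 15.8 and 22.8 TPM. The median of these 6 was 44.4 and 47.1 TPM.

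The central protuberance, the lobe at the top of the large subunit, was represented by 7 genes with a median of 33.0 and 41.9 TPM. Mrpl18 led at 68.3 and 104 TPM. Mrpl48 was at 44.2 and 37.3 TPM, Mrpl40 at 36.2 and 47.1 TPM, Mrpl38 at 33.0 and 41.9 TPM and Mrpl27 at 33.0 and 42.5 TPM. These 4 overlapped. Mrps30 (22.7 and 17.3 TPM) and Mrpl46 (19.2 and 17.5 TPM) were the lowest, and they overlapped each other but none of the rest.

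The 3 Mrps18 paralogs were each expressed. Mrps18b was at 72.4 and 65.8 TPM, Mrps18c at 49.9 and 58.4 TPM and Mrps18a at 28.1 and 42.3 TPM. All 3 kept this order in both libraries. Mrpl58, which encodes a peptidyl-tRNA hydrolase built into the large subunit that can free stalled chains, was at 38.2 and 38.5 TPM, near the median of the members.

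Most members were somewhat higher in replicate 2. TPM was higher there in 64 of 77 members, with a median difference in log2(TPM + 1), replicate 2 minus replicate 1, of 0.35 and a standard deviation of 0.34. The 9982 protein-coding nuclear genes of a mean of at least 1 TPM had a median difference of 0.18 and a standard deviation of 0.58. Most of these genes were thus also higher in replicate 2, and their exact share was not determined. Of the 77 members, 52 lay above the median of these genes, which by definition splits them equally. Large subunit genes had a median difference of 0.36 and small subunit genes 0.22. Counting error alone would give the members a standard deviation of 0.070 on the scale of counts. On CPM their standard deviation was 0.285, whereas TPM also holds changes in effective length. Less the median of all genes, 1 member was 2-fold or more higher in replicate 2, against 3.16% of genes, and 0 were 2-fold or more lower, against 3.48%. Among the 5921 genes in the members' own range of mean TPM these shares were 1.25% and 0.946%. The levels in both libraries correlated over members at r = 0.932 (Spearman 0.909), and 8 of the 10 highest and 7 of the 10 lowest members were shared. In pools of cells, fewer cells of a type and less RNA per cell cannot be told apart, and the part of the neutrophil and B cell markers given above in these differences was not tested.

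**Figure D3:**
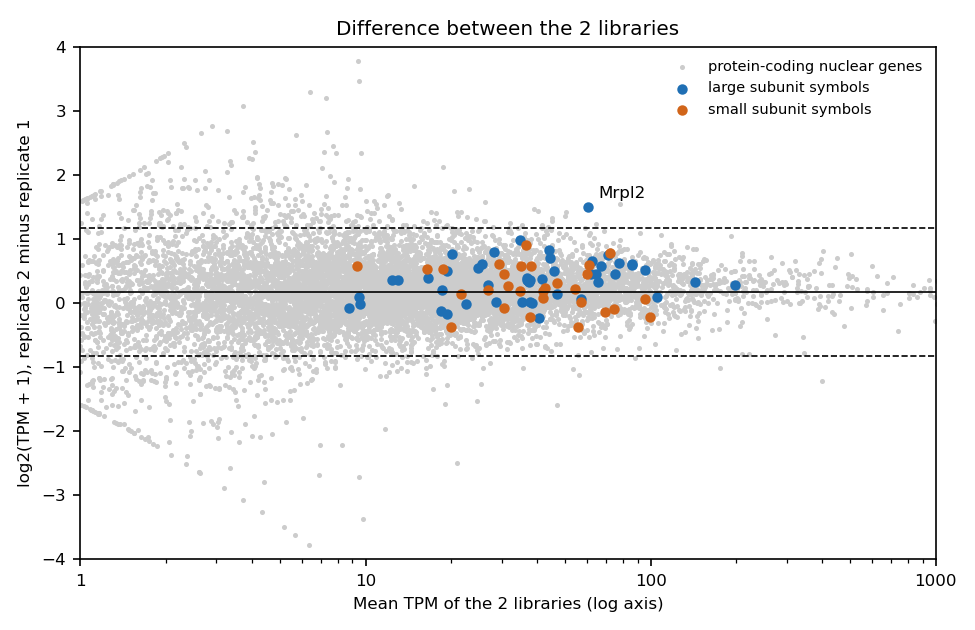
Difference in log2(TPM + 1), replicate 2 minus replicate 1, against mean TPM (log axis) for protein-coding nuclear genes of a mean of at least 1 TPM (grey, those outside the axes not drawn) and for large (blue) and small (orange) subunit symbols. The solid line is the median of all genes, 0.18, and the dashed lines lie 2-fold from it. Mrpl2 alone among the members lies beyond them.

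The member beyond 2-fold was Mrpl2, whose protein lies at the peptidyl transferase centre. Its level was 30.9 TPM in the first library and 89.7 TPM in the other, a ratio of 2.90 with a counting interval of 2.64 to 3.19 (exact, 95%). On CPM its ratio was 1.35. In replicate 2 a 212-base processed transcript, Mrpl2-204, was given 103.8 expected counts and 44.5 TPM, or 49.6% of the gene's level, and in replicate 1 it was listed at 0. The gene's effective length in replicate 2 was 0.524 times that in replicate 1. Without Mrpl2, 0 members were 2-fold higher.

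Of the others, Mrpl53 was at 23.1 and 46.8 TPM and Mrps25 at 25.2 and 47.9 TPM. Mrpl34 was at 31.6 and 56.6 TPM, Mrpl55 at 20.4 and 36.2 TPM and Mrps24 at 52.8 and 91.4 TPM. Each was below the 2-fold limit once the median of all genes was taken off. In the other direction, Mrps14 was at 63.1 and 48.4 TPM, Mrps30 at 22.7 and 17.3 TPM and Mrpl48 at 44.2 and 37.3 TPM. Mrps5 was at 40.7 and 34.7 TPM, Mrps16 at 107 and 92.4 TPM and Mrpl10 at 20.5 and 18.2 TPM. The intervals of these 6 ratios all lay below 1, the lowest being that of Mrps30, 0.691 to 0.840, and cover counting error only.

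Transcript estimates split the members into 2 kinds. Several transcripts were listed for 58 members and 1 for 19. In 48 of the 58 the same transcript was highest in both libraries, in 9 another one was, and in 1, Mrpl1, the highest of replicate 1 was tied with another in replicate 2. Another transcript was highest, ties counted as the same, in 27.7% of the 5838 protein-coding nuclear genes of a mean of at least 5 TPM with several transcripts. In 12 of the 58 the highest transcript was not of the protein-coding class in either library, against 10.8% of the same genes. These 12 were divided evenly, 6 with large and 6 with small subunit symbols. The median share of TPM in protein-coding transcripts was 88.7% and 83.6% over the 58 members, and 82.1% and 83.2% over those genes. Classes are those of GENCODE M21, whereas the authors quantified with M4.

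**Figure D4:**
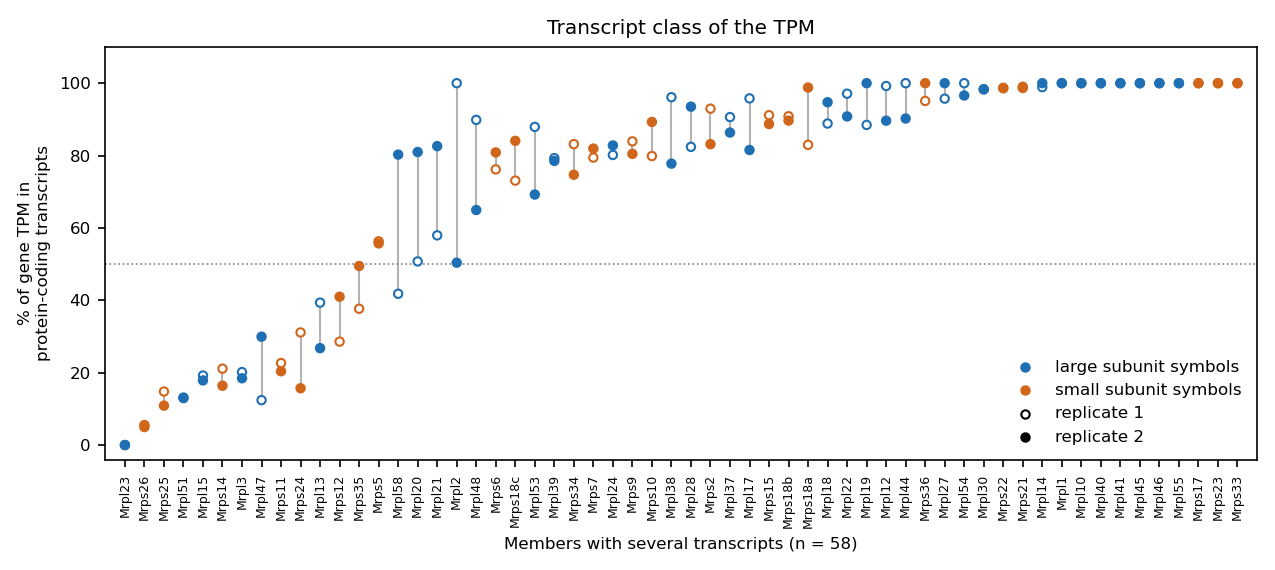
Percent of each gene's TPM in protein-coding transcripts in replicate 1 (open points) and replicate 2 (filled points), for the 58 members with several transcripts, ordered by the mean, with large subunit symbols in blue and small subunit symbols in orange. The dotted line marks 50%. The medians are 88.7% and 83.6%, and 14 members in replicate 1 and 13 in replicate 2 lie under 50%.

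Retained introns led in 3 members. In Mrps26 a retained-intron transcript held 94.5% and 95.03% of the TPM, in Mrps24 68.9% and 84.3%, and in Mrps25 58.8% and 78.4%. By reads the picture was milder for Mrps25, where protein-coding transcripts held 69.6% and 63.9% of its counts but 14.8% and 10.9% of its TPM. Mrps26 had 20.8% and 19.4% of its counts in protein-coding transcripts.

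Transcripts of the nonsense-mediated decay class, which are predicted to be degraded during translation, led in Mrps14 (78.9% and 83.6%), Mrpl3 (79.2% and 78.1%), Mrps11 (71.2% and 64.6%) and Mrpl13 (54.7% and 70.9%). Processed transcripts, a class with no reading frame annotated, led in Mrpl23 (97.8% and 94.6%), Mrpl47 (87.0% and 68.2%), Mrps12 (71.4% and 59.0%) and Mrpl15 (63.9% and 58.3%). The 12th was Mrpl51, with a processed transcript in replicate 1 (67.7%) and a retained intron in replicate 2 (45.1%). In Mrpl32 the single transcript listed belongs to the decay class in M21, so it has no share in protein-coding transcripts.

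The highest transcript changed between libraries in 9 members. Mrpl58 went from a retained intron at 45.6% of its TPM to a protein-coding transcript at 76.3%, and Mrps35 from a processed transcript at 58.3% to a protein-coding one at 49.5%. In Mrpl48 a protein-coding transcript at 71.6% gave way to one of the decay class at 35.1%. Mrpl51 has been described. In the other 5 both transcripts were protein-coding, and in Mrps18b, Mrpl20, Mrpl40, Mrpl55 and Mrps5 the new one held 78.9%, 43.5%, 59.6%, 52.7% and 31.7% in replicate 2. In Mrpl1 the transcript at 53.6% in replicate 1 shared the highest level of replicate 2 with another, each at 37.1%.

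Expected counts were given both to Mrpl23 and to a copy of it. Mrpl23-ps1, an annotated processed pseudogene at chr2:74591330-74591909 (mm10, minus strand), is identical to a transcript of Mrpl23 over 540 aligned bases. It was given 420.1 and 656.8 expected counts (43.1 and 41.1 TPM), against 489.9 and 847.2 for Mrpl23 itself. The protein-coding transcript of Mrpl23 in the tables was listed at 0 in both libraries. With the copy's reads added, Mrpl23 would stand at 98.9 and 99.7 TPM, rank 5 and 7 among the members in place of 16 and 23, so its level is uncertain. In all, 29 members had 54 annotated pseudogene copies of at least 80% identity over at least 200 bases, of which 9 held more than 3 expected counts in either library. How many other protein-coding genes have such copies was not determined.

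Exons of another gene overlapped those of 32 members, on the same strand in 7, and 45 had no overlap. The share with such overlap over all protein-coding nuclear genes was not determined. Strand use in the counting is not given in the sources used here, so reads of overlapping genes may have been shared. Among the overlapped members were Mrpl12 (with Gm16755), Mrpl18 (with Tcp1), Mrpl43 (with Twnk), Mrps30 (with B430218F22Rik) and the pair Mrps11 and Mrpl46 (with each other). The members lay on 17 chromosomes, 11 of them on chromosome 11.

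Many members were found beside a gene that starts in the opposite direction. In GENCODE M21, 33 of 77 members (42.9%) had a protein-coding nuclear neighbour on the other strand whose start lay within 1000 bases in a head-to-head arrangement. The share was 10.9% over all protein-coding nuclear genes, 20.7% over those at 10 TPM or more in both libraries and 18.8% over 80 cytosolic ribosomal protein genes. Each share also counts pairs whose gene models overlap at their starts, such as Mrpl48 with Rab6a, Mrpl18 with Tcp1 and Mrps30 with B430218F22Rik. The shares are a description of the annotation. The 33 members were 24 large and 9 small subunit genes in 32 pairs, since Mrps11 and Mrpl46 are neighbours of each other. Some of the other partners also serve mitochondria. Twnk, the replicative helicase of mitochondrial DNA, lay beside Mrpl43, and Sars2, the mitochondrial seryl-tRNA synthetase, beside Mrps12. Ndufs6 and Ndufb5, subunits of respiratory complex I, lay beside Mrpl36 and Mrpl47, and Ptcd2 beside Mrps27. The pair of Mrpl36 and Ndufs6 rests on GENCODE starts. The RefSeq promoter window of Mrpl36, chr13:73330759-73331058, lies more than 1000 bases from the GENCODE start of Ndufs6 at 73328542. These partners were picked by function from 31. The share of mitochondrial genes among them, or among head-to-head partners of all genes, was not determined.

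The stretches between the RefSeq start sites of 5 pairs are shown as examples of the sequence that lies between the genes. The annotations differ here, since the GENCODE M21 models of Mrps11 and Mrpl46 and of Twnk and Mrpl43 overlap, while their RefSeq starts lie apart. Each is the longest run outside annotated exons, given 5′ to 3′ on the plus strand of GRCm38 (mm10) from RefSeq promoters. Capitals mark the letters CCGGAAGT of the ETS family motif, which here read on the other strand. Such a stretch was found for 12 pairs, of which the 3 with capitals below held 1 of the motifs searched and 9 held none.
Mrps11 and Mrpl46: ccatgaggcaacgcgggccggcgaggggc
Mrps18c and Helq: gACTTCCGGcccgggaagcgcgggaa
Mrps27 and Ptcd2: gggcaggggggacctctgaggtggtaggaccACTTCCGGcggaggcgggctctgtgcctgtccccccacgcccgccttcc
Twnk and Mrpl43: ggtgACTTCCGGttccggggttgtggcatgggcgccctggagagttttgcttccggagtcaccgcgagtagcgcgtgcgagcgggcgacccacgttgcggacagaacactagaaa
Sars2 and Mrps12: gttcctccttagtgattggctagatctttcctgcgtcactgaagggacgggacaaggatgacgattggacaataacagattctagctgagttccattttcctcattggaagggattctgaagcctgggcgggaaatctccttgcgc
They lie at chr7:78783090-78783118, chr5:100798601-100798626, chr13:99344706-99344785, chr19:45006443-45006557 and chr7:28741822-28741967. Their lengths were 29, 26, 80, 115 and 146 bases. The start sites themselves were 42 bases apart for Mrps11 and Mrpl46, 159 for Mrps18c and Helq, 108 for Mrps27 and Ptcd2, 116 for Twnk and Mrpl43, and 147 for Sars2 and Mrps12.

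The genes of a pair often had different levels. Of the 31 partners that are not members, 17 were at 10 TPM or more in both libraries, 7 were above their member in both libraries and 24 below it in both. Fau, a cytosolic ribosomal protein gene, was at 953 and 1019 TPM beside Mrpl49 at 20.1 and 31.0 TPM. Oaz3, a gene known from sperm cells, was at 0 in both beside Mrpl9 at 19.9 and 29.6 TPM. Closer levels were found in other pairs, among them Mrps7 (23.05 and 35.8 TPM) with Gga3 (22.2 and 32.8 TPM). Mrpl43 (14.6 and 25.6 TPM) was near Twnk (13.5 and 14.0 TPM), and Mrps27 (13.3 and 19.6 TPM) near Ptcd2 (24.2 and 25.2 TPM). Pairs with a mitochondrial partner also lay apart. Mrps12 (76.5 and 71.8 TPM) was above Sars2 (10.1 and 14.6 TPM), and Mrpl47 (22.7 and 22.4 TPM) below Ndufb5 (83.2 and 125 TPM). Mrps11 was at 30.4 and 45.7 TPM, above Mrpl46 at 19.2 and 17.5 TPM. Members with such a neighbour had a median of 33.0 and 41.8 TPM, and those without 34.1 and 43.9 TPM.

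**Figure D5:**
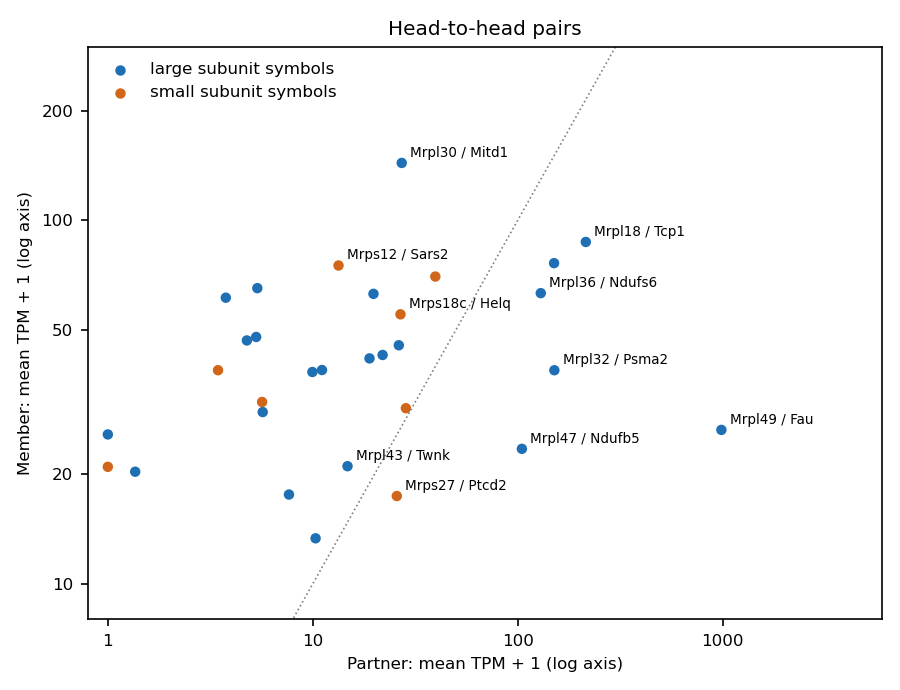
Mean TPM plus 1 of the 31 members (vertical, log axis) and of their head-to-head partners that are not members (horizontal, log axis), with large subunit symbols in blue and small subunit symbols in orange. The dotted line marks equal levels. Points lie on both sides of it, from partners at 0 TPM to Fau at 953 and 1019 TPM.

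Promoter letters were searched in RefSeq windows (GRCm38.p6) from 250 bases before to 50 after each start, which matched 68 of 77 members in 74 windows. The motifs were CCGGAAGT for the ETS family, to which the GABP factor belongs, GCGCATGCG for NRF1 and AAGATGGCG for YY1, on both strands, none contained in another. Factors of these 3 kinds are known to regulate nuclear genes for mitochondrial proteins. At least 1 of the 3 strings was found in 33.8% of the members' windows, against 6.69% of all promoters, 9.26% of those of protein-coding nuclear genes and 18.7% of those of genes at 10 TPM or more in both libraries. The ETS letters were in 14.9%, the NRF1 letters in 9.46% and the YY1 letters in 10.8% of the members' windows, and in 10.9%, 4.85% and 4.09% of those of genes at 10 TPM or more. A match is a run of letters and not a measured site. The 11 members with the ETS letters had medians of 41.6 and 42.5 TPM, and the 57 without 32.6 and 42.3 TPM. For the NRF1 letters the medians were 35.2 and 35.6 TPM with (7 members) and 32.7 and 45.7 TPM without, and for the YY1 letters 37.4 and 47.4 TPM with (8 members) and 32.9 and 41.9 TPM without. With the NRF1 letters the median was higher in replicate 1 and lower in replicate 2.

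The partners of the members in the ribosome were also measured. The 2 ribosomal RNAs from the mitochondrial genome were at 94557 and 98207 TPM (mt-Rnr1, small subunit) and at 98163 and 97304 TPM (mt-Rnr2, large subunit). Of the 5 ribosomal proteins with other names, all were at 10 TPM or more in both libraries. Dap3, of the small subunit and also known as a GTP-binding death-associated protein, was at 126 and 106 TPM, above every small subunit member in both libraries. Chchd1 was at 86.4 and 96.4 TPM, Aurkaip1 at 45.0 and 86.0 TPM, Ptcd3 at 37.7 and 46.7 TPM and Gadd45gip1 at 12.9 and 13.3 TPM.

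Genes that build and run the ribosome stood lower. Of 24 assembly factors, 14 were at 10 TPM or more in both libraries, with a median of 10.3 and 15.1 TPM. Fastkd2, an RNA-binding protein of mitochondrial RNA granules, was at 34.7 and 33.0 TPM, Noa1, a GTPase, at 32.0 and 37.7 TPM, Rbfa at 21.7 and 28.6 TPM and Mterf3 at 22.4 and 25.7 TPM. Mettl15, at 4.42 and 4.97 TPM, and Ybey, at 1.73 and 2.24 TPM, were the lowest. Of 14 translation factors 8 passed the same level, with a median of 15.5 and 20.2 TPM. Tufm, the elongation factor that brings transfer RNA, was highest at 51.2 and 61.8 TPM, followed by Lrpprc at 28.0 and 30.0 TPM. Tsfm, which recycles it, was at 17.4 and 28.8 TPM and Gfm1, the translocation factor, at 24.1 and 20.2 TPM. Taco1 (3.72 and 3.91 TPM) and the release factor Mtrf1 (2.93 and 2.92 TPM) were the lowest.

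Of 14 regulators and factors of mitochondrial transcription and RNA, 10 were at 10 TPM or more in both libraries. Myc was at 156 and 196 TPM and Slirp, the partner of Lrpprc in RNA binding, at 75.8 and 103 TPM. Pprc1, a coactivator of the PGC-1 family, was at 72.0 and 68.6 TPM. Nrf1 was at 32.0 and 35.4 TPM. Of the 2 lowest, Esrra was at 5.15 and 3.49 TPM, and Ppargc1a, the coactivator best known from muscle and brown fat, had 0 expected counts in both libraries. None of the genes in these 4 lists was 2-fold or more from the median of all genes in either direction. The shares were 3.16% and 3.48% of the genes tested. In the members' range of mean TPM they were 1.25% and 0.946%, and some listed genes lay below that range.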

How the data were processed

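Total RNA was sequenced in 2 MEP libraries. The authors quantified genes and transcripts on mm10 with GENCODE M4, per the README beside the tables, and the quantifier's version is not given in the sources used here. Expected counts, as deposited, are estimated reads per gene and need not be whole. TPM and posterior mean TPM, as deposited, correct for effective length. The authors also gave each transcript's percent of its gene. Symbols and classes came from GENCODE M21 by identifier (42462 of 43346 genes matched).

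The difference between libraries was log2(TPM + 1), which understates changes of low genes, less its median over genes of mean TPM at least 1. It was called at 1 or more. No test was made, since 2 libraries of 1 group leave none. Intervals (exact, 95%) take in the error of counting alone, because a molecule may give several reads. edgeR 4.0.16 and DESeq2 1.42.0, on rounded expected counts, gave alternative scalings. The calculations were tested on simulated data. Pseudogene copies were searched with blastn 2.17.0. The members and lists were chosen with earlier results of these data known. Genes were named by rule: the 8 highest and 5 lowest of each subunit, the 6 largest differences each way, the structural groups, members with unusual transcripts, overlaps or copies, and the 4 highest and 2 lowest of other lists. Members with overlaps or copies were named only in part. Head-to-head partners and the stretches shown were examples chosen outside this rule.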

Additional observations from a re-analysis of the deposited data

Results flagged for a closer look

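The rows of annotated pseudogenes lie outside the measurement of the members, and 5 copies of members held more than 3 expected counts, the limit that a count of 0 allows, in both libraries. Mrpl23-ps1, the identical copy of Mrpl23, had 420.08 and 656.79 expected counts in replicates 1 and 2. Gm6238, a copy of Mrpl30, had 30.0 and 8.0, so it was the only one of the 5 that was higher in replicate 1. Gm13552, a copy of Mrps18b, had 3.58 and 10.09. Mrpl48-ps had 3.41 and 5.77, and Gm13328, a copy of Mrps5, had 3.16 and 4.4. Against their members these 4 were small, the member Mrpl30 having 1515 and 2993 expected counts. How the reads were divided between a member and its copy was not tested.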

How the results depend on the processing

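Of 118 values under alternatives, 85 stayed within the spread between libraries, within 1.5 times for counts, or within 0.1 in log2. Some of the 85 could not move. All 77 members passed 1 TPM, and the choice of genes tested does not enter the members' own median difference. Medians and spreads of single libraries were judged by a limit drawn from those same libraries. The tally is therefore no measure of how firm the results are. TPM rescaled over protein-coding nuclear genes gave medians of 88.3 (all), 88.0 (large) and 88.8 (small) and a difference between libraries of 0.17. CPM with TMM factors gave medians of 25.4, 25.6 and 24.2, a large to small ratio of 1.06, standard deviations of log2 levels of 0.596, 0.641 and 0.521, a difference of 0.12 and 0 members 2-fold higher, and DESeq2 size factors also 0.12 and 0. Protein-coding transcripts only, an alternative chosen after seeing the data, gave medians of 26.3, 28.5 and 25.6 TPM, a ratio of 1.11 and standard deviations of 1.34, 1.47 and 1.13. So which subunit had the higher median depended on the setting. Subunits by structure gave a ratio of 0.890 and a standard deviation of 0.920 over all. Pseudocounts of 0.1 and 0 gave 0.926 and 0.929 over all. With every protein-coding nuclear gene tested the members' difference less the median was 0.35. Without Mrpl2, also chosen after seeing the data, 0 members were 2-fold higher. Members held 0.454% of protein-coding nuclear expected counts and 0.834% of TPM. With each library left out in turn, the small subunit median ran from 39.1 to 44.9 TPM, the ratio from 0.844 to 0.933, and the standard deviation from 0.897 to 0.927 over all and from 0.726 to 0.820 over small subunit genes. The large subunit had the larger standard deviation in each setting named here. The causes were not tested, except that the medians on other scales are in other units. No paired analysis was possible because both libraries belong to 1 group. With 2 libraries, 1 donor record and pools of 100 cells, precision rests on 1 difference per gene, and lowest member counts were 225 and 561.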
